A study of Mus musculus with 6 samples.

Results

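Fatty acid uptake and oxidation is represented here by 34 genes, taken by name from a table of 24537 transcripts, and all 34 were found. They were measured by RNA-seq in regulatory T cells (Tregs, a CD4 T cell type that holds immune responses in check) from the colon of mice with colitis caused by TNBS, a hapten put on the skin (150 µl at 1%) and, 7 days later, into the rectum (100 µl at 2.5%). There were 6 libraries, 3 labelled REV-ERB KO and 3 labelled REV-ERB WT, and both groups had colitis, so no library shows the uninflamed colon. The sources used here do not give the age and strain of the mice, the sort of the Tregs, the way the knockout was made, or whether each library is a different mouse. The p-values therefore rest on a spread between libraries that may be technical.

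Fatty acids enter a cell through surface proteins, are bound in the cytosol, and are activated by joining to coenzyme A. The carnitine shuttle carries them into mitochondria, where β-oxidation shortens them in repeated rounds of dehydrogenation, hydration, a further dehydrogenation and thiolytic cleavage, and passes electrons to the respiratory chain. Tregs are known to use oxidative metabolism more than effector T cells do. The nuclear receptor REV-ERBα, encoded by Nr1d1, is a repressor in the circadian clock, and it is known as a regulator of lipid metabolism in the liver.

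The deposited unit is TPM, a transcript level scaled for length and library, so levels of different genes can be set side by side. The listed transcripts held 9794480 to 15890630 reads per library, recovered from the TPM values, with more in every KO-labelled library than in any WT-labelled one. Reads outside these transcripts are not included, so the full depth of each library is not known. Nr1d1 stood at 169.2, 154.3 and 141.4 TPM in the KO-labelled libraries and at 66.3, 104.0 and 88.2 TPM in the WT-labelled ones, which goes against a loss of the transcript. The row spans the whole transcript and which exons were removed is not stated in the labels, so directions below follow the labels as given. The Treg markers Cd3d, Cd3e, Cd3g, Cd4, Foxp3, Il2ra, Ctla4 and Ikzf2 were present in all 6 libraries, and all 8 were lower in the KO-labelled libraries by group mean. Foxp3, the defining factor of Tregs, had by far the largest of these differences, at 195.3, 171.4 and 235.0 against 451.4, 663.7 and 590.3 TPM (-1.49, limma adjusted p = 0.0678, the lowest over all tested genes), while Il2ra (-0.10) and Ikzf2 (-0.07) differed little. All 17 epithelial markers were higher by group mean in the KO-labelled libraries, although sorted Tregs should lack them. Their summed level was 3280 to 6574 TPM against 2305 to 3264 TPM. Every KO library lay above every WT library for 10 of the 17, beside 10.6% of all tested genes. In bulk RNA, a different share of cells of a type and a different RNA level per cell cannot be told apart, and this touches every result below. Macrophage markers were present in both groups (905.6 to 1643 against 859.3 to 1383 TPM, summed over 11 genes, 10 of them higher by group mean in the KO-labelled libraries), and the adipocyte markers Plin1, Cfd and Lep were listed at 0 in every library, while Adipoq (0.309 TPM, 4 reads) and Retn (0.494 TPM, 3 reads) were found in KO 3 alone. By mean log2(TPM + 1), 10 of 10 fibroblast and muscle markers (median 0.36) and 4 of 4 neutrophil markers (1.73) were also higher in the KO-labelled libraries. By mean TPM, Col3a1 went the other way, at 88.0 against 89.0 TPM. Most of the neutrophil markers rested on few reads. S100a8 had 4, 20 and 35 against 0, 0 and 0, and S100a9 had 4, 65 and 106 against 0, 4 and 10. Retnlg had 10, 14 and 52 against 8, 0 and 4, and Csf3r had 101, 298 and 197 against 72, 77 and 181. The groups overlapped for S100a9, Retnlg and Csf3r. Of 6 endothelial markers, the 4 tested were higher (0.26), as was the untested Kdr, while the untested Emcn was at 1.65 against 1.76 TPM. Of 4 B cell markers, 2 were higher and 2 lower (median 0.04). The part of these cell types in the results was not tested. Nr1d2, which encodes REV-ERBβ, was at 88.6, 65.2 and 52.6 against 50.4, 70.4 and 62.2 TPM, with overlap.

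Most of the 34 genes were slightly higher in the KO-labelled libraries, and none passed the test. Each difference is KO-labelled minus WT-labelled, in log2(TPM + 1), from limma's moderated two-sided test over all 13211 genes with at least 1 TPM in at least 3 libraries, and all 34 were among these. The difference was above 0 for 29 of the 34 genes and below 0 for 5, where 49.5% of all tested genes were above 0. Their median was 0.20, against -0.003 over all tested genes. No member had an adjusted p under 0.05 (lowest adjusted p = 0.2158, limma with Benjamini-Hochberg adjustment), and 0% of all tested genes did. At an unadjusted p under 0.05 there were 6 members (17.6%), all higher in the KO-labelled libraries, beside 7.8% of all tested genes higher, 7.86% lower and 15.7% in either direction.

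Every KO-labelled library lay above every WT-labelled library for 10 of the 34 genes (29.4%), where 10.6% of all tested genes did so. The reverse held for 1 of the 34, Acox3, and for 10.4% of all tested genes. For the other 23 genes the groups overlapped. For each of those 11 genes the exact permutation test gave p = 0.1, the smallest value that 6 libraries in groups of 3 allow. That value follows from the lack of overlap and adds nothing to it. The 95% interval lay wholly between -1 and 1 on the log2 scale for 30 of the 34 genes, and the exceptions were Hadh, Lpl, Pdk4 and Ppargc1a.

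**Figure D1:**
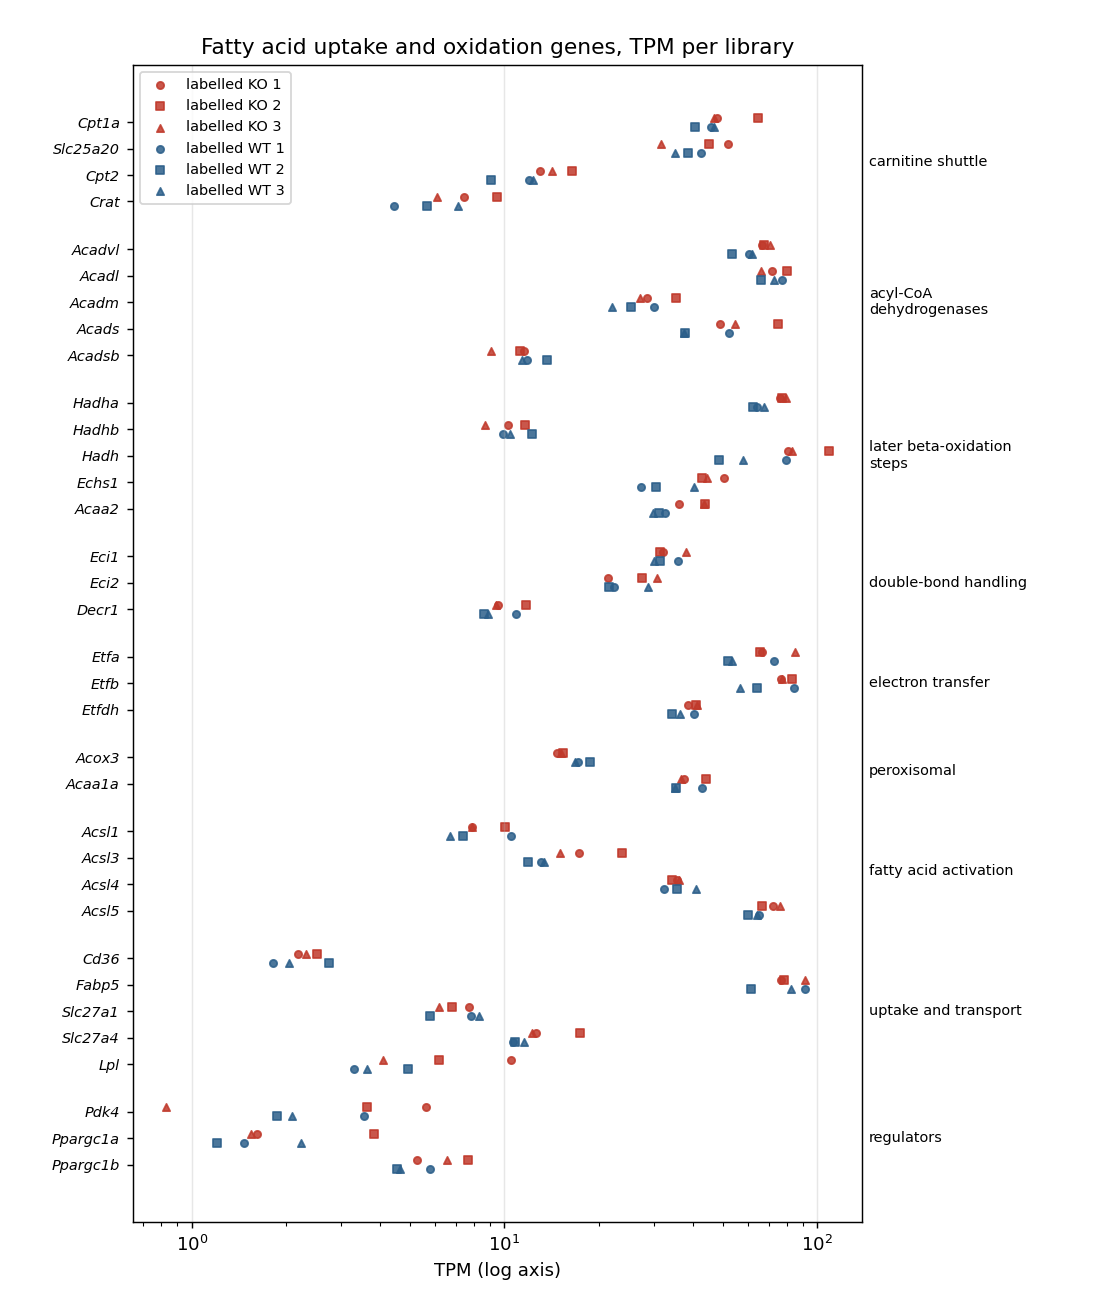
TPM of the 34 genes on a log axis, grouped by role, with 1 point per library (red, labelled KO; blue, labelled WT; the marker shape gives the replicate number). By mean over the 6 libraries, levels run from Ppargc1a and Cd36 at the low end to Fabp5, Hadh and Etfb at the high end. The lowest single point is Pdk4 in KO 3, at 0.826 TPM. The colours overlap for 23 of the 34 genes.

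The later steps of mitochondrial β-oxidation had the largest median difference of the 9 roles, 0.38. Every KO library lay above every WT library for 4 of their 5 genes, beside 10.6% of all tested genes. The role is named first as the extreme of 9, and the roles were not tested against each other. Echs1, which hydrates short-chain enoyl-CoA, stood at 50.4, 43.0 and 44.3 TPM in the KO-labelled libraries and at 27.4, 30.6 and 40.3 TPM in the WT-labelled ones. The groups did not overlap, and WT 3 came close to the lowest KO library. The difference was 0.49 (SE 0.157, limma adjusted p = 0.226), with means of 45.9 ± 3.93 and 32.8 ± 6.75 TPM (SD, n = 3). Hadh, which dehydrogenates 3-hydroxyacyl-CoA, stood at 80.8, 109.0 and 83.2 TPM against 79.7, 48.7 and 57.8 TPM. KO 2 was highest and WT 2 lowest, while WT 1 lay just under KO 1. The difference was 0.56 (SE 0.195, limma adjusted p = 0.2474), the largest of the β-oxidation enzymes in this fit, but it was 0.09 with the epithelial marker level as a covariate. Acaa2, the mitochondrial thiolase that ends a round, stood at 36.2, 43.7 and 43.6 TPM against 32.7, 31.2 and 29.9 TPM, with no overlap. It had the smallest p of the 34 genes (difference 0.38, SE 0.118, limma adjusted p = 0.2158).

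Hadha and Hadhb encode the α and β subunits of the mitochondrial trifunctional protein, which carries out the last steps for long chains. Hadha stood at 76.3, 77.1 and 79.6 TPM in the KO-labelled libraries and at 64.3, 62.2 and 67.9 TPM in the WT-labelled ones. The groups did not overlap and the spread within each was small (77.7 ± 1.71 against 64.8 ± 2.89 TPM, SD, n = 3). The difference was 0.26 (SE 0.0902, limma adjusted p = 0.2474). The row of Hadhb stood far lower, at 10.2, 11.6 and 8.68 TPM against 9.91, 12.2 and 10.5 TPM, and its groups overlapped (difference -0.09, 95% interval -0.48 to 0.31). The ratio of Hadha to Hadhb was 7.45, 6.62 and 9.17 in the KO-labelled libraries and 6.49, 5.09 and 6.49 in the WT-labelled ones. Every KO ratio was thus above every WT ratio, by a mean of 0.36 on the log2 scale (exact two-sided permutation p = 0.1, the smallest possible). KO 2 lay only just above WT 1 and WT 3, and the p-value follows from the lack of overlap and adds nothing to it. The table holds 1 transcript per gene and its counting settings are not given, and whether all reads of Hadhb were counted, on which its level and the ratio rest, was not tested. The row of Hadhb rests on 133 to 222 reads per library and that of Hadha on 1604 to 3203.

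These 2 genes lie head to head on mm10 chromosome 5, Hadha (NM_178878, 30118304 to 30154980) on the minus strand and Hadhb (NM_001289799, 30155253 to 30184593) on the plus strand, with 272 bases between their starts. Their promoter windows, from 250 bases before to 50 after the start (RefSeq, GRCm38.p6), share 228 bases read from opposite strands. They are shown because these partner genes, with a common upstream stretch, were listed at different levels in every library. Neither window holds the letters AGGTCA, so no base is in capitals.
Hadha, minus strand, chr5:30154931-30155230: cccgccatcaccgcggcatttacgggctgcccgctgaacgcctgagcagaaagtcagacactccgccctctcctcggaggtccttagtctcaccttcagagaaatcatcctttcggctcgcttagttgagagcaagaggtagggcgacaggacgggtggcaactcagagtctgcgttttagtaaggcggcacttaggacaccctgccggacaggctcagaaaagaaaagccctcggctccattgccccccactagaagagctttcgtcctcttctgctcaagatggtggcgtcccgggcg
Hadhb, plus strand, chr5:30155003-30155302: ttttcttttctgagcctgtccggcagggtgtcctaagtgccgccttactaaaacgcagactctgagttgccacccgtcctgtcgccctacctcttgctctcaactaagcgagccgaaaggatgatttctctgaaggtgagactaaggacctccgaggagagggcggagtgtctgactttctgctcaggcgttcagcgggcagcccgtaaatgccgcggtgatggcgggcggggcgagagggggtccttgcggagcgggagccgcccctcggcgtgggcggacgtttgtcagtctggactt

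AGGTCA is the core element that many nuclear receptors bind, REV-ERBα and the PPARs among them. A promoter window whose own transcription start lay within 50 bases of the deposited transcript start was found for 26 of the 34 genes and for 16292 of all rows. Searched on both strands, the core element was in 5 of the 26 windows (19.2%) and in 14.2% of all windows. The search also took AGGTCA repeated after 1 base of any kind, AGGTCA repeated after 2 bases, AANT directly before AGGTCA, and AANT directly before GGGTCA. The first 3 of these contain the core element itself. Each of the 4 was in 0 of the 26 windows, and in 0.0675%, 0%, 0.221% and 0.172% of all windows. The 60 bases around each match are given 5′ to 3′ on the gene's strand, with the match in capitals (TGACCT where it lies on the opposite strand), because these are the members that carry it. Of these 5 genes, Cpt1a, Acadvl and Echs1 had every KO library above every WT library, as had 29.4% of the 34 genes and 10.6% of all tested genes. The groups of Acadm and Cd36 overlapped. Whether the element bears on any difference was not tested.
Cpt1a, plus strand, chr19:3323180-3323239: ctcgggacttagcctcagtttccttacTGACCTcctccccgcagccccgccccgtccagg
Acadvl, minus strand, chr11:70015483-70015542: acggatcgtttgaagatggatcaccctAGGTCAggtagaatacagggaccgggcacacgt
Acadm, minus strand, chr3:153944834-153944893: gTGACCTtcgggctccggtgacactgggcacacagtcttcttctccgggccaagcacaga
Echs1, minus strand, chr7:140116472-140116531: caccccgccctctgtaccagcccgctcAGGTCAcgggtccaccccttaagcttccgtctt
Cd36, minus strand, chr5:17836087-17836146: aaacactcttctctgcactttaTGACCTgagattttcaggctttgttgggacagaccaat

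The acyl-CoA dehydrogenases open each round of β-oxidation for chains of a given length, and 4 of the 5 were higher by group mean, with differences from -0.19 to 0.47 that were not tested against each other. Acadvl (very long chains) stood at 66.6, 67.5 and 70.7 TPM in the KO-labelled libraries and at 60.6, 53.5 and 61.9 TPM in the WT-labelled ones. Its groups did not overlap, and the difference was 0.22 (SE 0.0999, limma adjusted p = 0.342). Acads (short chains) stood at 48.8, 74.8 and 54.7 TPM against 52.3, 37.9 and 37.5 TPM, where KO 2 stood apart and WT 1 was above KO 1. Its difference was 0.47 (SE 0.193, limma adjusted p = 0.3045), and 0.29 without KO 2. Acadl (long chains), the most abundant of the 5, stood at 71.9, 80.2 and 66.0 TPM against 77.4, 66.3 and 73.0 TPM. Its groups lay over each other (difference 0.01, 95% interval -0.25 to 0.27). Acadm (medium chains) was at 30.3 ± 4.36 against 25.8 ± 3.98 TPM (0.22, and 0.11 without KO 2 or 0.12 without WT 3), and Acadsb, which acts on short branched chains from isoleucine, at 10.6 ± 1.35 against 12.3 ± 1.21 TPM (-0.19).

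The carnitine shuttle was higher by group mean for all 4 of its genes, with a median of 0.30. Cpt1a, which loads long chains onto carnitine and controls their entry, stood at 48.0, 64.9 and 46.8 TPM in the KO-labelled libraries and at 45.9, 40.6 and 46.7 TPM in the WT-labelled ones. The groups did not overlap, but KO 3 and WT 3 differed by only 0.095 TPM and KO 2 made most of the difference of 0.24 (SE 0.147, limma adjusted p = 0.4528). Without KO 2 it was 0.09. Cpt2, which returns the chains to coenzyme A inside the mitochondrion, stood at 13.0, 16.5 and 14.2 TPM against 11.9, 9.05 and 12.4 TPM, again without overlap (0.37, SE 0.174, limma adjusted p = 0.354; 0.24 without WT 2). Slc25a20, the carrier between these enzymes, was at 51.9, 45.3 and 31.6 against 42.5, 38.5 and 35.2 TPM, so that the KO libraries held both its highest and its lowest value. Crat, which handles short acyl groups, was at 7.67 ± 1.71 against 5.74 ± 1.35 TPM.

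Electron transfer and the handling of double bonds showed overlapping groups for all 6 genes. Etfa and Etfb form the flavoprotein that takes electrons from the dehydrogenases, and Etfdh hands them to ubiquinone. Etfb stood at 76.7, 83.2 and 77.2 TPM in the KO-labelled libraries and at 84.1, 64.4 and 56.7 TPM in the WT-labelled ones, where the highest value was WT 1. Etfa was at 72.4 ± 10.8 against 59.3 ± 11.7 TPM (difference 0.29) and Etfdh at 40.3 ± 1.54 against 37.0 ± 3.06 TPM (0.12). The ratio of Etfa to Etfb ran from 0.79 to 1.10 in the KO-labelled libraries and from 0.804 to 0.942 in the WT-labelled ones, so these subunits, unlike Hadha and Hadhb, were measured at near-equal levels (difference of the log2 ratio 0.07, exact permutation p = 0.8). The isomerases Eci1 and Eci2 and the reductase Decr1, needed for unsaturated chains, differed by 0.06 to 0.12. Eci1, the most abundant of them, stood at 32.2, 31.5 and 38.0 TPM against 35.9, 31.5 and 30.1 TPM.

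**Figure D2:**
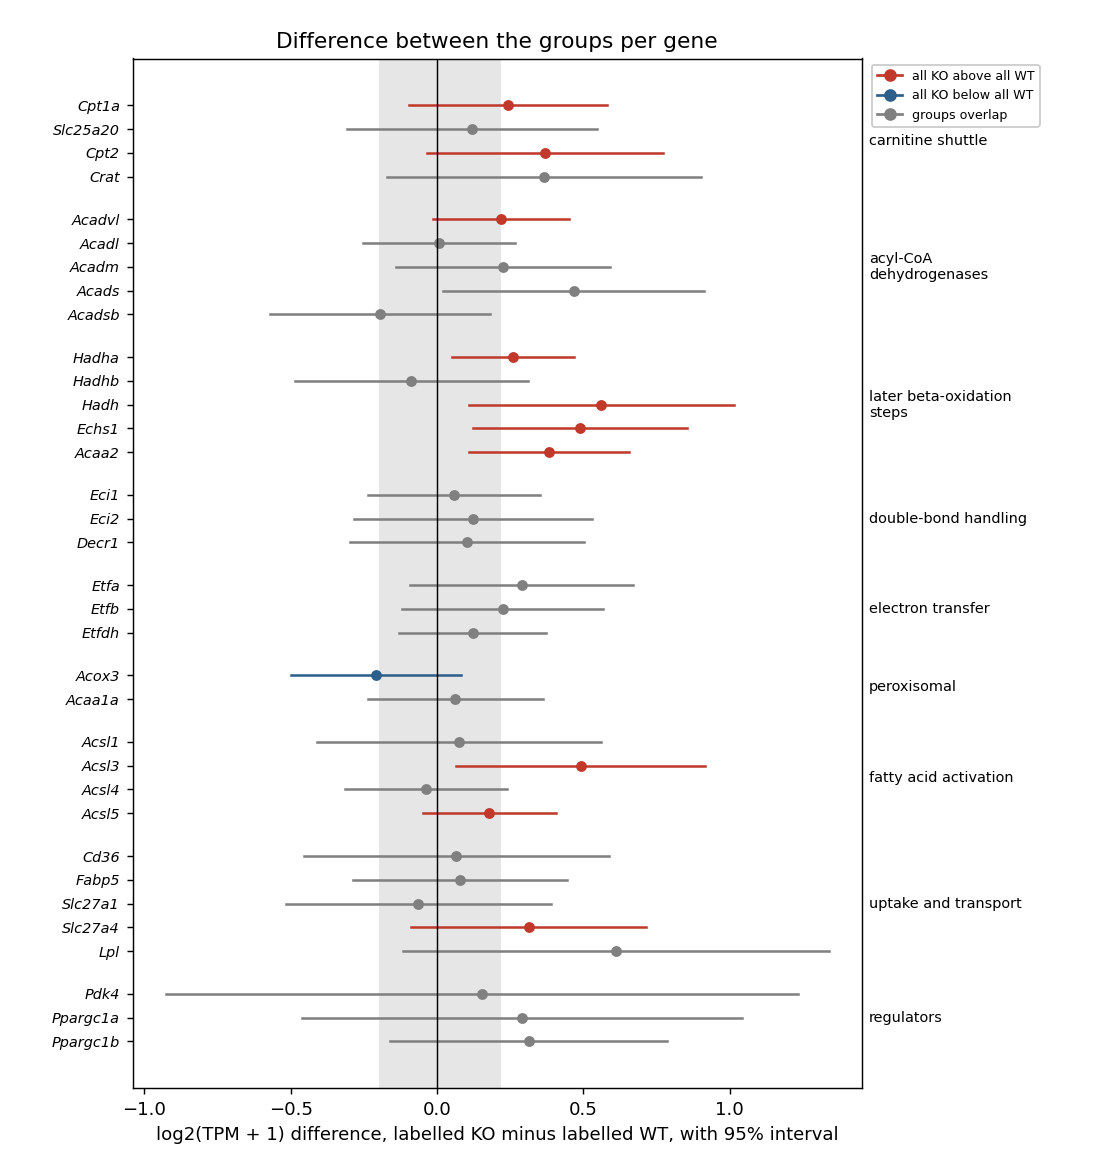
Difference of each gene on the log2(TPM + 1) scale with its 95% interval from the limma fit, grouped by role. Red marks the 10 genes with every KO library above every WT library, blue the 1 gene with the reverse, and the grey band spans the middle 50% of all tested genes (-0.20 to 0.21).

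Peroxisomes shorten very long and branched chains, and neither of their 2 genes here passed the test. Acox3, an oxidase for branched chains, was lower in every KO-labelled library, at 14.8, 15.4 and 15.1 TPM against 17.1, 18.8 and 16.8 TPM. The difference was -0.21 (SE 0.126, limma adjusted p = 0.4528). Its genomic span overlaps that of 4931431C16Rik on the opposite strand over 5704 bases, and the sources used here do not say whether reads were counted by strand. Acaa1a, a peroxisomal thiolase, stood at 37.4, 44.0 and 36.6 TPM against 42.7, 35.3 and 35.1 TPM, with overlap (0.06).

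The long-chain acyl-CoA synthetases activate fatty acids, and Acsl3 and Acsl5 were the 2 of 4 whose groups did not overlap. Both had every KO library above every WT library, as had 10.6% of all tested genes. Acsl5, the most abundant, stood at 72.3, 66.6 and 76.4 TPM in the KO-labelled libraries and at 65.2, 60.1 and 64.2 TPM in the WT-labelled ones (0.18, SE 0.0985, limma adjusted p = 0.4134). Acsl3, found at lipid droplets, stood at 17.4, 23.7 and 15.0 TPM against 13.1, 11.9 and 13.4 TPM. KO 2 was highest, and the difference was 0.49 (SE 0.184, limma adjusted p = 0.2685), and 0.32 without KO 2. The genomic span of Acsl3 shares 9777 bases, introns included, with that of Utp14b on the same strand, and whether reads of the pair were split was not tested. Acsl4, which prefers arachidonic acid, was at 35.3 ± 0.918 against 36.4 ± 4.33 TPM (-0.04), and Acsl1 at 8.6 ± 1.25 against 8.2 ± 2.02 TPM (0.08).

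Among the genes of uptake and transport, levels spanned 2.27 TPM for Cd36 to 80.2 TPM for Fabp5, as means over the 6 libraries. Fabp5, a cytosolic fatty acid binding protein and the most abundant of the 34 genes, stood at 76.4, 78.4 and 91.2 TPM in the KO-labelled libraries and at 91.4, 61.4 and 82.3 TPM in the WT-labelled ones. The groups overlapped over most of their range (0.08, 95% interval -0.29 to 0.44). Slc27a4, a fatty acid transport protein with acyl-CoA synthetase activity, stood at 12.6, 17.4 and 12.3 TPM against 10.6, 10.8 and 11.6 TPM. It did not overlap, and KO 2 was again highest (0.31, SE 0.173, limma adjusted p = 0.4159), and the difference was 0.16 without KO 2. Its relative Slc27a1 was at 6.88 ± 0.769 against 7.29 ± 1.34 TPM (-0.06).

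Lpl, which releases fatty acids from lipoproteins, had the largest difference of the 34 genes, 0.61, with a wide 95% interval of -0.12 to 1.34 (limma adjusted p = 0.3882). It stood at 10.5, 6.16 and 4.09 TPM in the KO-labelled libraries and at 3.29, 4.9 and 3.63 TPM in the WT-labelled ones. The difference rested mainly on KO 1, and without that library it was 0.30. Cd36, a scavenger receptor that takes up long-chain fatty acids, was scarce in both groups, with 65, 82 and 86 reads against 42, 75 and 54. At 2.18, 2.51 and 2.31 TPM against 1.82, 2.75 and 2.04 TPM its groups overlapped (0.07, 95% interval -0.45 to 0.59).

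The regulators were the scarcest group, at means of 1.98 to 5.74 TPM, and none of their groups was separate. Pdk4, a kinase that turns pyruvate dehydrogenase off and so favours fatty acid use, stood at 5.60, 3.63 and 0.826 TPM in the KO-labelled libraries and at 3.56, 1.88 and 2.09 TPM in the WT-labelled ones. The KO libraries held the highest and the lowest value, from 163, 116 and 30 reads, and the 95% interval of the difference was -0.93 to 1.23. Ppargc1a (PGC-1α), a coactivator of mitochondrial genes, stood at 1.61, 3.84 and 1.54 TPM against 1.47, 1.20 and 2.23 TPM, with KO 2 alone above the WT range. Ppargc1b, its close relative, was the most abundant regulator, at 5.26, 7.66 and 6.53 TPM against 5.79, 4.54 and 4.65 TPM (0.31, SE 0.204, limma adjusted p = 0.4881; 0.20 without KO 2).

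Library KO 2 held the highest value for 14 of the 34 genes and WT 2 the lowest for 14, so the libraries at the ends of the range recurred. After each gene's mean over the 6 libraries was taken off, the median of the 34 genes came to 0.02, 0.18 and 0.0004 in the KO-labelled libraries 1, 2 and 3. The values were 0.04, -0.18 and -0.08 in the WT-labelled ones 1, 2 and 3. WT 1 therefore lay above KO 1 and KO 3 by this measure. Without WT 1 the count of genes with every KO library above every WT library went from 10 to 19, where 18.2% of all tested genes did so.

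Epithelial RNA, as the mean log2 level of 17 markers, stood at 7.11, 7.74 and 6.72 in the KO-labelled libraries 1, 2 and 3 and 6.69, 6.05 and 6.43 in the WT-labelled ones 1, 2 and 3. Within each group the libraries had the same order in the epithelial markers and in the fatty acid genes. KO 3 and WT 1, the pair nearest in epithelial level, differed by 0.06 in the median of the 34 genes and by 0.06 in the median of all tested genes. KO 2 and WT 2, the pair furthest apart, differed by 0.34 in the 34 genes and by -0.02 in all tested genes. The pairs between these did not all keep the same order. KO 1 and WT 1 differed by 0.43 in epithelial level but by only 0.03 in the 34 genes. The part of epithelial RNA in the difference was not tested. With the epithelial level as a covariate the median of the 34 genes was 0.04 instead of 0.20, and 20 of 34 were above 0. No member then had an unadjusted p under 0.05, beside 5.19% of all tested genes. Every KO-labelled library had a higher epithelial level than every WT-labelled one, so the covariate and the label are confounded. The fit cannot tell how much of the difference goes with either. In that fit the difference was 0.04 for Acads, 0.04 for Slc27a4, 0.07 for Ppargc1b, 0.08 for Acsl3 and 0.10 for Cpt2. It was 0.57 for Echs1, 0.34 for Acaa2, 0.26 for Hadha, 0.25 for Acsl5 and 0.18 for Acadvl. The lowest limma adjusted p of any member in that fit was 0.943. Without both KO 2 and WT 2, a setting chosen after seeing the data, the median was 0.10, 22 of 34 were above 0 and no member had an unadjusted p under 0.05, beside 5.04% of all tested genes.

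**Figure D3:**
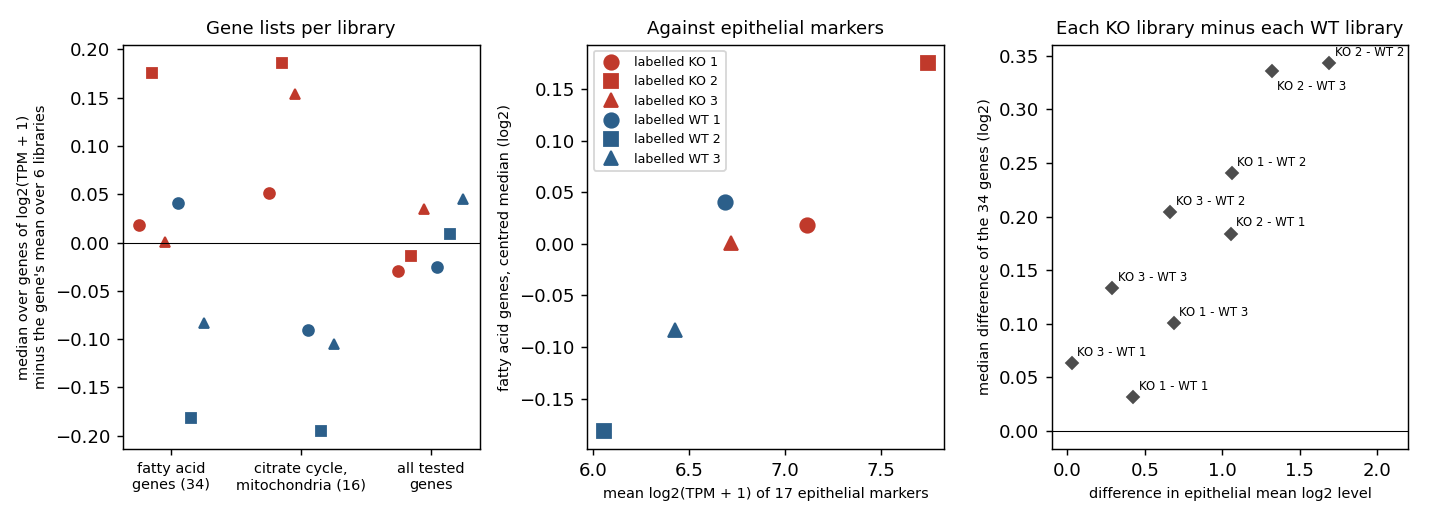
Left, median over each list of log2(TPM + 1) minus the gene's mean, 1 point per library (red, labelled KO; blue, labelled WT; the marker shape gives the replicate number). Middle, the same for the 34 genes against the mean level of 17 epithelial markers, and right, the 9 pairs of a KO and a WT library, which share libraries; the pair KO 2 and WT 2 stands at the top of both axes.

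Other genes of fatty acid metabolism were taken from lists, and none of them passed the threshold in either direction. Over all tested genes, 49.5% were above 0 and the median was -0.003. Of 16 tested genes of mitochondrial oxidation and carnitine transport outside the 34, 10 were above 0 and 6 below, with a median of 0.14. Hsd17b10, a mitochondrial dehydrogenase, stood at 61.8 ± 4.58 against 50.1 ± 5.24 TPM (0.30, limma adjusted p = 0.2839). Cpt1c, a relative of Cpt1a, stood at 0.884 ± 0.428 against 2.02 ± 0.621 TPM (-0.68, limma adjusted p = 0.313). The other listed relative, Cpt1b, chosen after its values were seen, was at 1.22 ± 0.205 against 2.09 ± 0.339 TPM, so both scarce forms of Cpt1 were lower by group mean and the abundant one was higher.

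Of 11 tested peroxisomal genes 9 were above 0 (median 0.21). Scp2, a peroxisomal thiolase and sterol carrier, stood at 32.9 ± 1.42 against 27.8 ± 1.87 TPM and Ehhadh, the bifunctional enzyme, at 9.43 ± 0.512 against 7.18 ± 1.14 TPM, with no overlap for either gene. Of 11 tested genes of uptake, binding and lipolysis 7 were above 0 (median 0.26). Acsbg1, an acyl-CoA synthetase, was lower in every KO-labelled library, at 31.7 ± 8.26 against 51.5 ± 5.5 TPM (-0.71, limma adjusted p = 0.1764). Dbi, which binds acyl-CoA, was at 176.8 ± 23.99 against 133.7 ± 27.4 TPM. Fabp2, the fatty acid binding protein of the intestinal epithelium, chosen after its values were seen, was present in both groups at 56.8 ± 13.2 against 42.3 ± 6.38 TPM.

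Of the 18 listed regulators 11 were above 0 (median 0.10). Pparg, a lipid-sensing nuclear receptor, had no overlap, and neither had Esrra, a receptor that drives oxidative genes with PGC-1 (30.3 ± 6.31 against 20.7 ± 1.16 TPM, 0.51, limma adjusted p = 0.226). Pparg differed by 0.68 (limma adjusted p = 0.1558). Fatty acid synthesis and storage, the opposing pathway, had 18 of 19 genes above 0 and a median of 0.11. The desaturase Scd2 stood at 111.7 ± 20.3 against 67.6 ± 17.4 TPM (0.73, limma adjusted p = 0.2113) and Dgat2, which makes triglycerides, at 114.7 ± 48.4 against 55.9 ± 25.5 TPM (1.03, limma adjusted p = 0.2407), where the groups overlapped for Dgat2.

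The citrate cycle and other mitochondrial genes, a list of 16, were all above 0, with a median of 0.27, where 49.5% of all tested genes were above 0. Idh3a, a subunit of the NAD-dependent isocitrate dehydrogenase, stood at 61.8 ± 4.54 against 47.3 ± 2.25 TPM. Every KO library lay above every WT library for 8 of the 16, against 10 of the 34 fatty acid genes and 10.6% of all tested genes. The centred median of the mitochondrial list was 0.05, 0.19 and 0.15 in the KO-labelled libraries and -0.09, -0.20 and -0.10 in the WT-labelled ones, so here, other than for the 34 genes, WT 1 lay below all KO libraries. The nuclear transcripts Malat1 and Neat1, which are retained in the nucleus, were lower in every KO-labelled library, by 0.93 and 0.98 on the log2 scale, and their part in any of these differences was not tested.

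**Figure D4:**
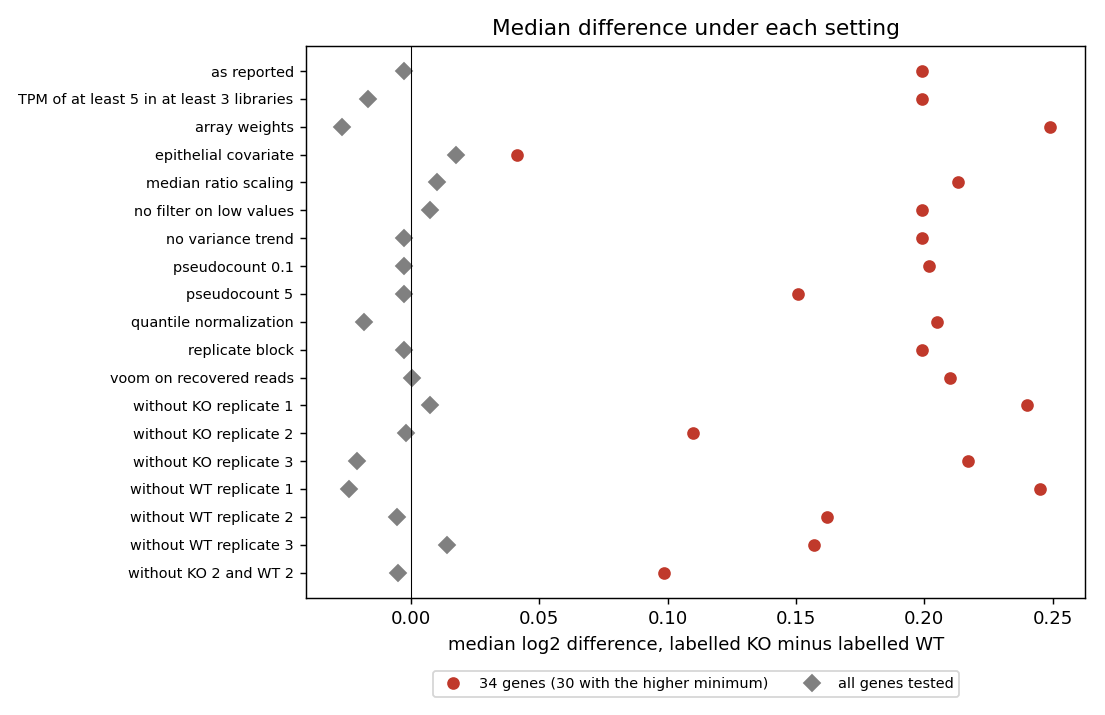
Median log2 difference over the 34 genes (red circles; 30 genes where the TPM minimum was 5) and over all genes tested (grey diamonds) under each setting. The red points run from 0.04 with the epithelial covariate to 0.25 with array weights, and the grey ones stay between -0.03 and 0.02.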

How the data were processed

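The authors deposited TPM per RefSeq transcript and library in a single table, per the file headers. The submitters' processing notes name FastQC 0.11.8, Trim Galore 0.4.4, STAR 2.5.3a, HOMER 4.9.1 and the build mm10, with no settings. The columns sum to 634200 to 644662 TPM. TPM times length came out as whole multiples of a step in each library (99.99% of values up to 500 reads within 0.1), which gave the reads. No column lacked a sample.

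Genes that reached 1 TPM in 3 or more of the 6 libraries were tested with limma 3.58.1 (R 4.3.3, variance trend, genotype only) on log2(TPM + 1), with Benjamini-Hochberg adjustment over all 13211 genes and a threshold of 0.05. The fit was also run on simulated reads, with genes drawn independently and the same extra spread for every gene. That run therefore does not show how the fit behaves on libraries that differ in cell type markers. Exact permutation tests used scipy 1.17.1. No library pair of a group agreed within sampling noise. Every one of the 34 genes may be named; values per library are given for the 8 of smallest p, for those whose groups did not overlap and for the most abundant of each role, and the others in full were chosen after their values were seen. Other lists give 2 genes of smallest p, of which 1 is not reported here. The members and lists were chosen with earlier results of these data known. Deviations from the group mean correlated at 0.0037, -0.2187 and -0.0408 for same-numbered libraries, and at -0.1195 to 0.1621 for the others. The labels do not say whether same-numbered libraries belong together. Deviations within a group of 3 add up to 0, so these values cannot settle it.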

Additional observations from a re-analysis of the deposited data

How the results depend on the processing

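No member passed the threshold under any of 18 other settings (lowest adjusted p = 0.0633, limma with array weights), and 18 of the 34 genes kept their sign in every setting that tested them. Over all genes, 582 passed with array weights and 0 to 14 when 1 library was left out, the 14 without WT 1. The replicate block treats same-numbered libraries as belonging together, which the labels do not state. With 1 KO and 1 WT library per number, the block cannot change any difference, so the median stayed at 0.199 by construction. Each gene's difference is likewise fixed under the other filters on low values and without the variance trend. With the block, 5 members had an unadjusted p under 0.05 instead of 6, beside 13.8% of all tested genes instead of 15.7%. The median of the 34 genes was 0.041 with the epithelial covariate and 0.11 to 0.245 without 1 library, lowest without KO 2. Without 1 library, 10 to 19 members lay wholly above and 1 to 2 wholly below the WT libraries, the 2 without KO 1, WT 2 or WT 3; without both KO 2 and WT 2 there were 3 below. Of all tested genes, 12.7% to 19.3% lay wholly above and 12.4% to 23.5% wholly below without 1 library, and 16.1% wholly below without both. The members at an unadjusted p under 0.05 numbered 2 without KO 2 or WT 2, and 3 without WT 3, where 8.99%, 8.29% and 10.7% of all tested genes did so. The cause of these shifts was not tested.

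Signs changed with the epithelial covariate for Cpt1a (-0.096), Slc25a20 (-0.16), Acadl (-0.22), Acadm (-0.058), Decr1 (-0.17), Acaa1a (-0.18), Acsl1 (-0.26), Acsl4 (0.038), Fabp5 (-0.013), Pdk4 (-0.71) and Ppargc1a (-0.34). They changed with array weights for Eci2 (-0.035) and with quantile normalization for Cd36 (-0.014). Without KO 2 and WT 2 they changed for Acadl (-0.12), Decr1 (-0.050), Acaa1a (-0.063), Acsl1 (-0.085), Fabp5 (-0.054), Pdk4 (-0.11) and Ppargc1a (-0.13). Without 1 library the range crossed 0 for Slc25a20 (-0.029 to 0.32), Pdk4 (-0.24 to 0.69), Acadl (-0.065 to 0.074), Acaa1a (-0.020 to 0.15), Acsl1 (-0.040 to 0.25), Ppargc1a (-0.013 to 0.45), Hadhb (-0.18 to 0.013), Eci1 (-0.025 to 0.13), Slc27a1 (-0.20 to 0.025), Cd36 (-0.021 to 0.18), Fabp5 (-0.084 to 0.20) and Acsl4 (-0.11 to 0.050). The log2 ratio of Etfa to Etfb went from -0.069 to 0.17 and that of Hadha to Hadhb from 0.23 to 0.47.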
